A study of Mus musculus with 4 samples.

Results

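In mouse whole brain, 10 genes that mark astrocytes were examined for N6-methyladenosine (m6A) peaks. The genes were *Gfap*, *Aqp4*, *Gja1*, *Slc1a2*, *Slc1a3*, *Glul*, *Aldh1l1*, *Aldoc*, *S100b* and *Sparcl1*, which are 10 of the 21511 protein-coding genes with a complete coding sequence in the GENCODE M21 annotation of the mm10 (GRCm38) genome. They were chosen by name, as genes used to identify astrocytes, with earlier results of these data known. Every peak that touched an exon of any of their transcripts was taken from both peak lists. The brains came from C57BL/6J mice at 4 weeks of age, and the series' design text describes the animals as Prrc2a flox/flox, which carry the conditional allele, with no Cre named there. Fragmented mRNA was immunoprecipitated (IP) with an antibody against m6A, and 2 IP samples and 2 input samples made up the 4 samples of the series. Each IP sample had its own peak list, replicate 1 and replicate 2, and the study's methods call them biological replicates without giving the number of animals behind each. There was 1 group only, so no condition was compared, and with 2 replicates the difference between them was described and not tested.

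Astrocytes take up glutamate and potassium, carry water across their end-feet, share small molecules through gap junctions and secrete proteins that act on synapses. m6A is placed on nascent mRNA by the METTL3-METTL14 methyltransferase at adenosines in short sequence contexts with GGAC at their core, is removed by FTO and ALKBH5, and is bound by reader proteins that act on splicing, translation and decay of the mRNA. In mammalian mRNAs, it is known to be dense in long internal exons and around stop codons. A peak is a stretch of transcript with more IP reads than input reads, and its fold enrichment is the linear ratio of the 2.

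All 10 genes had an exonic peak in at least 1 replicate, and 9 had a shared peak, meaning a replicate 1 peak that overlapped a replicate 2 peak by at least 1 base. Over all protein-coding genes, 57.3% had an exonic peak and 46.0% had a shared peak. *Aldoc* was the exception, with a peak in replicate 2 alone. With shared peaks required to reach a fold enrichment of 2 in each replicate, 7 of the 10 genes kept one, against 37.2% of all genes, and *Gfap*, *Aldh1l1* and *Aldoc* had none. Counted only among genes with a shared peak, 7 of the 9 listed genes kept one, against 80.9% of all 9899 such genes. A peak needs enough RNA to be called, and the peak lists hold no expression level or read depth, so these shares were not corrected for how strongly the genes are expressed. In whole tissue, few astrocytes and little RNA in each astrocyte cannot be told apart either.

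The bases common to a replicate 1 peak and the replicate 2 peak it overlapped are called a shared interval. The sequences below show where the m6A motif lies in the shared intervals, read from the GRCm38 genome on the strand of the gene, 5′ to 3′, with GGACT or GGAC in capitals. GGACT was the motif searched first because it is the most common context of m6A. It occurred 44 times in the 10 mRNAs, and 11 of these sites lay inside shared intervals. Sites in the part of a shared peak that only 1 replicate covered, as for the other 2 sites of *Glul*, were not counted. *S100b* had all of its 3 GGACT sites inside shared intervals, *Glul* 2 of 4, *Aqp4* 2 of 6, *Slc1a2* 2 of 8 and *Aldh1l1* 2 of 8.
S100b 5′ UTR, chr10:76253921-76253945 (+): aagccagagaGGACTccagcagcaa
S100b distal 3′ UTR, chr10:76261019-76261043 (+): tgagagtcgaGGACTgtgggaagct
S100b distal 3′ UTR, chr10:76261034-76261058 (+): gtgggaagctGGACTtgaggctttc
Glul coding sequence, chr1:153908030-153908054 (+): cgcattccccGGACTgtcggccagg
Glul 3′ UTR beside the stop codon, chr1:153908175-153908199 (+): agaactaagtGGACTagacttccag
Slc1a2 distal 3′ UTR, chr2:102789625-102789649 (+): cctcactggtGGACTgggcttaaag
Slc1a2 distal 3′ UTR, chr2:102790026-102790050 (+): aacctttgatGGACTgatcttgagt
Aldh1l1 exon 10, chr6:90569861-90569885 (+): ccaccttcggGGACTtcatccagct
Aldh1l1 exon 12, chr6:90571935-90571959 (+): ctttgagaatGGACTgtggggaaag

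The genes *Gfap*, *Slc1a3*, *Gja1* and *Sparcl1* had no GGACT in their shared intervals, and some of these intervals held the shorter GGAC. The next sequences are the GGAC contexts nearest to the stop codon in the shared intervals of *Gja1* and *Slc1a3*, the one GGAC in the shared intervals of *Gfap*, and for contrast a GGACT of *Aldoc* that lay in no peak of either replicate.
Gja1 coding sequence, chr10:56388584-56388608 (+): agttgctgctGGACacgaactccag
Slc1a3 coding sequence, chr15:8636166-8636190 (-): tgattgcccaGGACaatgaaccgga
Slc1a3 3′ UTR beside the stop codon, chr15:8636115-8636139 (-): agatgtagacGGACagagaagtgct
Gfap distal 3′ UTR, chr11:102887431-102887455 (-): cctctttccaGGACatcgccccccc
Aldoc 3′ UTR, chr11:78326549-78326573 (+): gaagatggggGGACTttctagaagt

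A 300-base stretch of *Sparcl1* exon 4 (chr5:104092534-104092833, minus strand) is shown because this exon carried 1 of the strongest shared peaks and 6 GGAC in all, 3 of which are in the stretch.
Sparcl1 exon 4: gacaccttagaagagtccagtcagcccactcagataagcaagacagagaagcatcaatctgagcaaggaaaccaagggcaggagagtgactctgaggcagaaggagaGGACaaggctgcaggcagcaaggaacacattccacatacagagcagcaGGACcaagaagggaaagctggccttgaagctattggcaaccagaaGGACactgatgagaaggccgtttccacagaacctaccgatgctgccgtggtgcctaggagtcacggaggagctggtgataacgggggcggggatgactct

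The replicates set how closely 2 values can be compared. Replicate 1 had 38533 peaks with a median fold enrichment of 2.88, and replicate 2 had 30134 peaks with a median of 2.20. Over the 22457 peaks that could be matched one to one, replicate 1 was 1.29-fold higher at the median. With that shift removed, 95% of the matched peaks differed between replicates by less than 1.92-fold in either direction, and differences within this range are described here as within the replicate spread. The 10 genes had 31 peaks in replicate 1, of which 26 were shared, and 36 in replicate 2, of which 25 were shared. Their overlaps formed 26 shared intervals. Of the 25 one-to-one pairs among them, 19 were higher in replicate 1, and 1 lay outside the replicate spread.

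**Figure D1:**
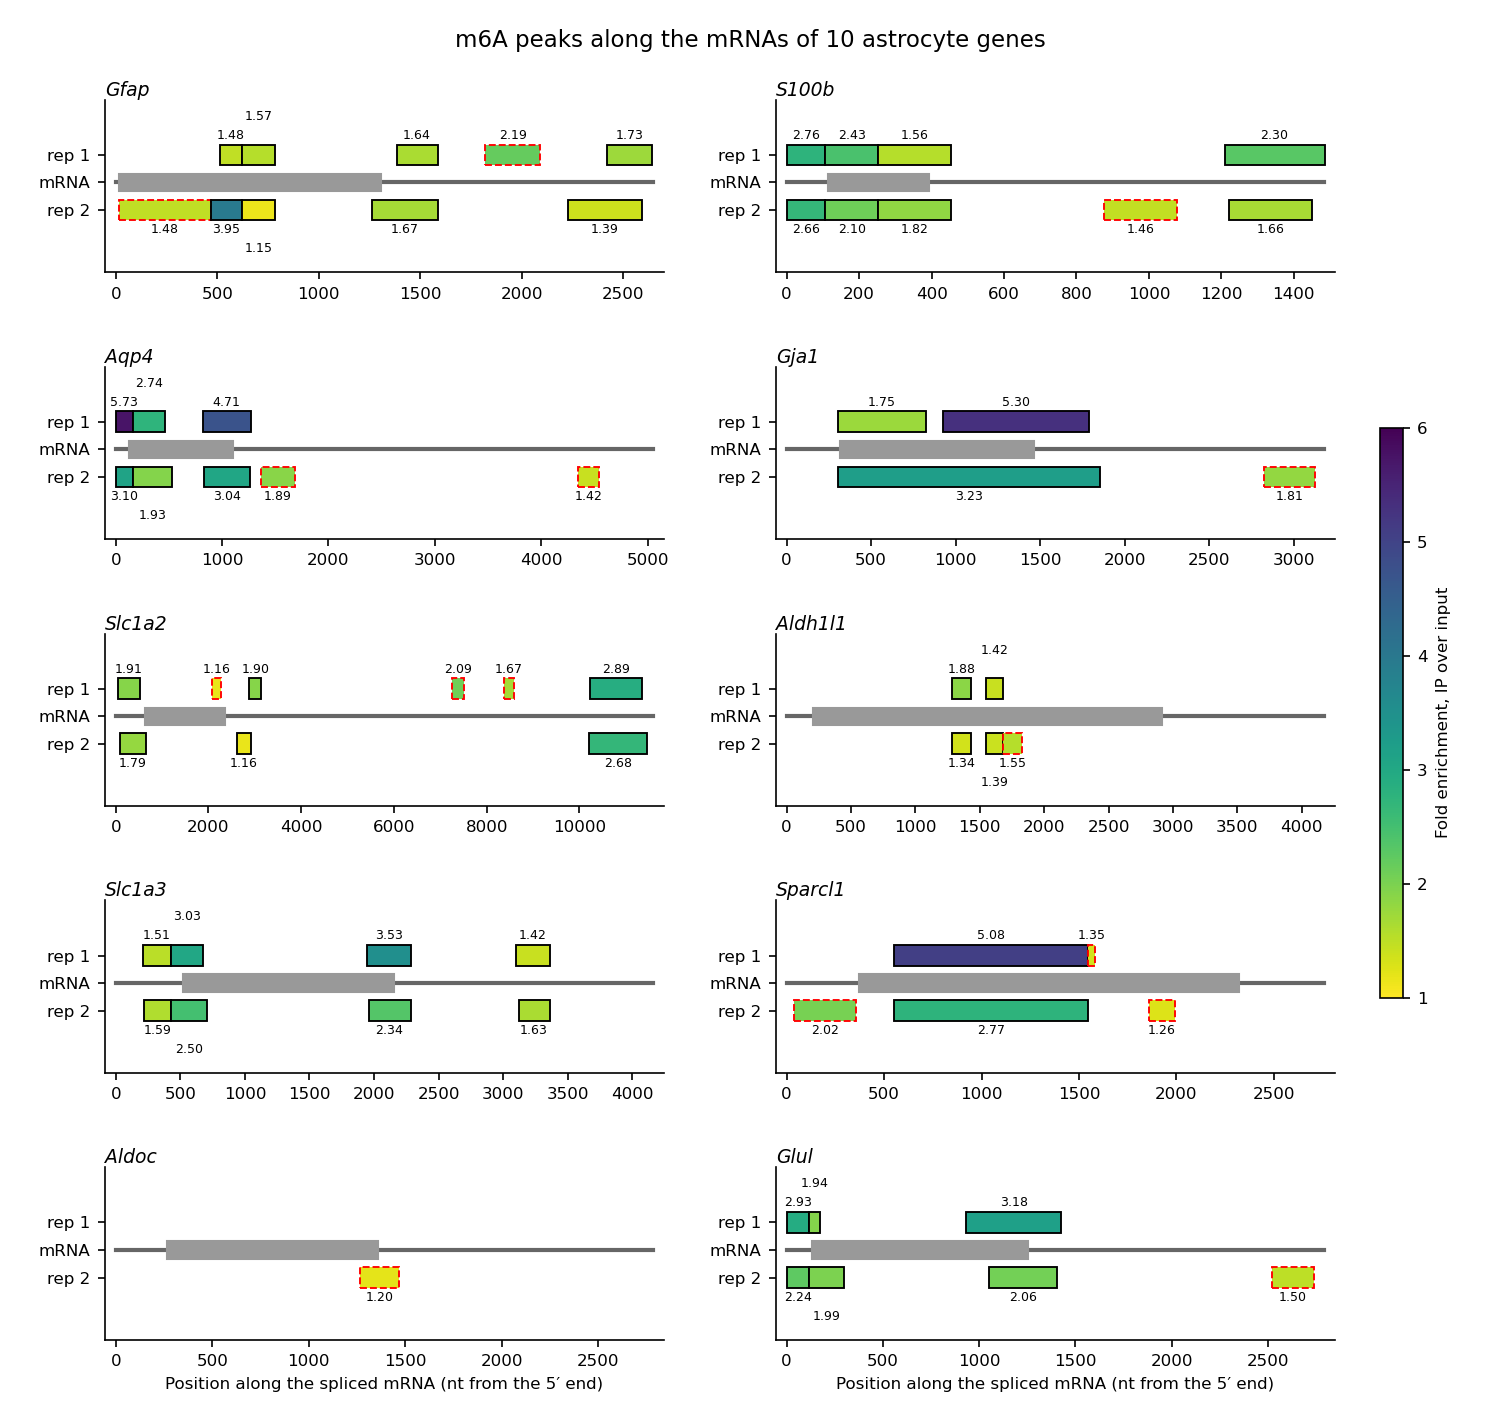
Peaks along the spliced mRNA of each of the 10 astrocyte genes, in nucleotides from the 5′ end, with replicate 1 above and replicate 2 below. The grey box is the coding sequence and the line the untranslated regions, the colour and the printed number give the fold enrichment, black outlines mark shared peaks and red dashed outlines peaks of 1 replicate. *Aldoc* has no replicate 1 peak, *Sparcl1* has its strong peak over an internal exon, and *Aqp4*, *Gja1*, *Slc1a3* and *Glul* have peaks over start and stop codons. A replicate 2 peak over an alternative exon 1 of *Gja1*, with a fold enrichment of 1.29, is not part of the drawn mRNA.

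*Gfap* encodes the intermediate filament protein by which astrocytes are most often stained. Its gene lies at chr11:102887336-102900912 on the minus strand and its mRNA had 4 shared intervals, all of low enrichment in at least 1 replicate. The interval nearest the stop codon began 76 nt into the 3′ UTR and was enriched 1.64-fold in replicate 1 and 1.67-fold in replicate 2. These values were at percentiles 8.15 and 20.2 of their own peak lists. Near the end of the 3′ UTR (chr11:102887395-102887564), the values were 1.73 and 1.39, and over exon 4 they were 1.57 and 1.15. The stop codon itself was covered in replicate 2 alone, by the 1.67 peak.

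The remaining *Gfap* interval was the 1 pair outside the replicate spread among the 25 one-to-one pairs. It ran across exons 2 and 3 and the intron between them (chr11:102895369-102895765), with 112 of its 397 bases in exons. Its fold enrichment was 1.48 in replicate 1, at percentile 4.31 of its list, and 3.95 in replicate 2, at percentile 94.9. The log2 ratio of replicate 1 over replicate 2 was -1.42, while the median over all matched peaks was 0.37. It held no GGAC. *Gfap* also had a replicate 1 peak of 2.19 in the middle of the 3′ UTR and a replicate 2 peak of 1.48 over the start codon, neither of which was shared.

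*Aqp4* encodes the water channel of astrocyte end-feet. Its gene is on chromosome 18, and no sequence of it is shown. Its mRNA had the highest replicate 1 value of the 10 genes, 5.73 over exon 1 and the start codon, where replicate 2 had 3.10. The exonic bases of that interval held no GGAC. The peak over the stop codon in exon 5 was nearly as high, with 4.71 and 3.04. An interval over exon 2 had 2.74 and 1.93 and held both GGACT sites of *Aqp4* that lay inside shared intervals. All 3 pairs were higher in replicate 1, by amounts within the replicate spread. Beyond the stop codon peak, the 3′ UTR of 3955 nt had peaks in replicate 2 alone, of 1.89 and 1.42.

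*Gja1* encodes connexin 43, the main gap junction protein of astrocytes. Its gene lies at chr10:56377330-56402513 on the plus strand, and the whole coding sequence is in exon 2. In replicate 2, 1 peak of 1555 bases and a fold enrichment of 3.23 spanned the coding sequence and the first part of the 3′ UTR. In replicate 1, the same region was divided into a peak of 522 bases over the start codon, with a fold enrichment of 1.75, and a peak of 865 bases over the stop codon, with a fold enrichment of 5.30. The higher enrichment of replicate 1 was thus at the stop codon end, and replicate 2 gave no separate values for the ends. The overlap at the start codon was not a one-to-one pair. Its log2 ratio of replicate 1 over replicate 2, less the median over all matched peaks, was -1.25, which is also outside the replicate spread. A peak of 1.81 near the end of the 3′ UTR was in replicate 2 alone.

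*Slc1a2* and *Slc1a3* encode GLT-1 and GLAST, the glutamate transporters of astrocytes, and their peaks lay at different places. *Slc1a2* (chr2:102658659-102790784, plus strand) has a 3′ UTR of 9250 nt, and its strongest shared interval was 1115 nt long and centred 8444 nt after the stop codon. The fold enrichment there was 2.89 in replicate 1 and 2.68 in replicate 2, near the middle of the replicate 1 list at percentile 50.2 and at percentile 70.6 of replicate 2. The 2 *Slc1a2* GGACT contexts printed above are in this interval. The 5′ UTR had 1.91 and 1.79. A further pair in the 3′ UTR, 1.90 and 1.16, shared 43 bases, with no GGAC among them. No peak of either replicate covered the stop codon of *Slc1a2*, and replicate 1 alone had peaks of 1.16, 2.09 and 1.67 in exon 10 and the 3′ UTR.

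*Slc1a3* (chr15:8634124-8710764, minus strand) had its stronger peaks at both ends of the coding sequence. Over the stop codon in exon 10 (chr15:8636005-8636328), the fold enrichment was 3.53 in replicate 1 and 2.34 in replicate 2. Over the start codon in exon 2 (chr15:8708591-8708905), it was 3.03 and 2.50. Both of these intervals held 2 GGAC. Weaker intervals lay in the 5′ UTR of exon 1, with 1.51 and 1.59, and 1085 nt after the stop codon, with 1.42 and 1.63. Every *Slc1a3* exonic peak was shared.

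*Glul* encodes glutamine synthetase, which turns glutamate taken up by astrocytes into glutamine. Its gene lies at chr1:153899944-153909723 on the plus strand. The interval over the stop codon in exon 7 (chr1:153907984-153908332) had 3.18 in replicate 1 and 2.06 in replicate 2 and held 2 GGACT, 1 of them with its adenosine 5 nt after the stop codon. The 5′ UTR interval over exon 1 had 2.93 and 2.24 and held no GGAC. That peak also overlapped exons of *Teddm2* and *Mir8114*, and the TruSeq RNA v2 kit named in the labels does not mark the strand, so reads of these genes and of *Glul* cannot be told apart there. Over the start codon in exon 2, the values were 1.94 and 1.99. A peak of 1.50 at the end of the 3′ UTR was in replicate 2 alone.

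*Aldh1l1* and *Aldoc* encode enzymes of folate metabolism and of glycolysis, and their strongest peaks were the weakest of the 10 genes. *Aldh1l1* (chr6:90486427-90600203, plus strand) had shared intervals over internal coding exon 10, with 1.88 and 1.34, and exon 12, with 1.42 and 1.39. Each exon interval contained 1 GGACT. The exon 12 values were at percentiles 3.01 and 6.04 of their lists. A peak of 1.55 over exon 13 was in replicate 2 alone, and neither the start nor the stop codon of *Aldh1l1* was covered.

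*Aldoc* (chr11:78322968-78327781, plus strand) had no exonic peak in replicate 1. In replicate 2, a peak of 200 bases over the stop codon (chr11:78326262-78326461) had a fold enrichment of 1.20, at percentile 0.707 of that list. Its mRNA of 2786 nt held 4 GGACT and 15 GGAC, none of which lay in that peak. A called peak depends on depth as well as on methylation, and the depth is unknown, so the data set no upper limit on methylation of *Aldoc*.

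*S100b* and *Sparcl1* encode a small calcium-binding protein and a secreted matricellular protein of the SPARC family. *S100b* (chr10:76253853-76261159, plus strand) had a peak over each of its 3 exons and another near the end of the 3′ UTR, and these 4 shared intervals covered 46.0% of its mRNA of 1484 nt. The 5′ UTR interval was the strongest, with 2.76 in replicate 1 and 2.66 in replicate 2. The start codon interval in exon 2 followed with 2.43 and 2.1, and the distal 3′ UTR interval had 2.30 and 1.66. The stop codon interval was the weakest of the 4, with 1.56 and 1.82. A further 3′ UTR peak, of 1.46, was in replicate 2 alone. The 3 GGACT of *S100b* lay in the 5′ UTR interval and the distal 3′ UTR interval, and the start codon interval held no GGAC.

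*Sparcl1* (chr5:104079111-104113733, minus strand) had 1 shared interval, which was the whole of exon 4. This internal coding exon is 996 bases long, and the replicate 2 peak began and ended at its edges (chr5:104092378-104093373). The fold enrichment was 5.08 in replicate 1, at percentile 90.1, and 2.77 in replicate 2, at percentile 73.5. The difference between replicates was within their spread. The peak held 6 GGAC and no GGACT. Peaks in 1 replicate alone were 2.02 over the 5′ UTR and 1.26 over exon 8 in replicate 2, and 1.35 over exon 5 in replicate 1.

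**Figure D2:**
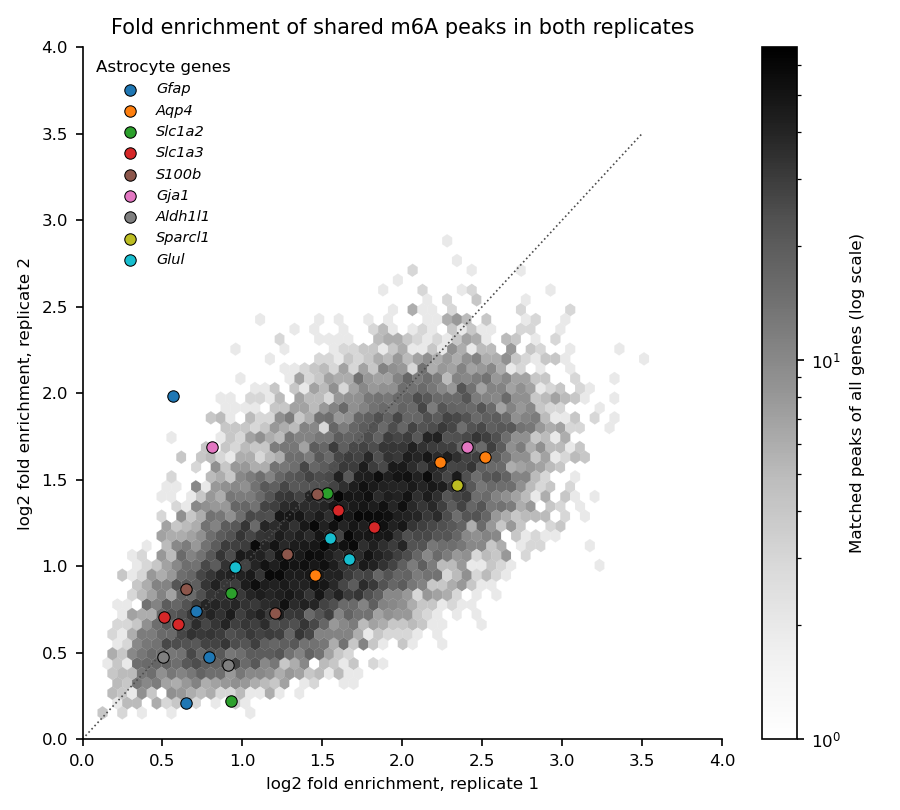
Fold enrichment of shared peaks on a log2 scale, replicate 1 on the horizontal and replicate 2 on the vertical axis. Coloured points are the 26 shared intervals of the astrocyte genes, the grey hexagons are the 22457 matched peaks of all genes, and the dotted line marks equal values. The *Gfap* point with linear fold enrichments of 1.48 and 3.95 stands above the others, and the *Gja1* points of 1.75 and 5.30 in replicate 1 share the replicate 2 peak of 3.23.

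Ranked by the lower of the 2 values of the strongest shared peak, the order was *Gja1* at 3.23, *Aqp4* at 3.10, *Sparcl1* at 2.77, *Slc1a2* at 2.68, *S100b* at 2.66, *Slc1a3* at 2.50, *Glul* at 2.24, *Gfap* at 1.64 and *Aldh1l1* at 1.39. On the log2 scale, the means of the 2 replicates were 2.05 ± 0.51 (SD, n = 2) for *Gja1*, 2.08 ± 0.63 (SD, n = 2) for *Aqp4* and 1.91 ± 0.62 (SD, n = 2) for *Sparcl1*. The mean was 0.49 ± 0.02 (SD, n = 2) for *Aldh1l1*. These SDs include the general shift between replicates, a median log2 ratio of 0.37, and so do not rank the genes by reproducibility. With that shift removed, the log2 ratio of replicate 1 over replicate 2 was 0.35 for *Gja1*, 0.52 for *Aqp4*, 0.50 for *Sparcl1* and -0.34 for *Aldh1l1*. None of the 8 pairs of neighbours in this order differed by more than the replicate spread. Of all 36 pairs of genes, 5 differed by more than 1.92-fold in the same direction in both replicates. These were *Gja1* over *Gfap*, and *Gja1*, *Aqp4*, *Sparcl1* and *Slc1a2* over *Aldh1l1*. The ratios of *Gja1* to *Gfap* and of *Slc1a2* to *Aldh1l1* were both 1.93 in replicate 2, just past the range. Ranking by the lower value set aside the *Gfap* interval of 1.48 in replicate 1 and 3.95 in replicate 2. Its replicate 2 value was above the 3.23 of *Gja1*, so *Gja1* over *Gfap* holds for the ranked intervals only. The median of the 9 genes was 2.66, and that of all 9899 genes with a shared peak was 2.65.

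**Figure D3:**
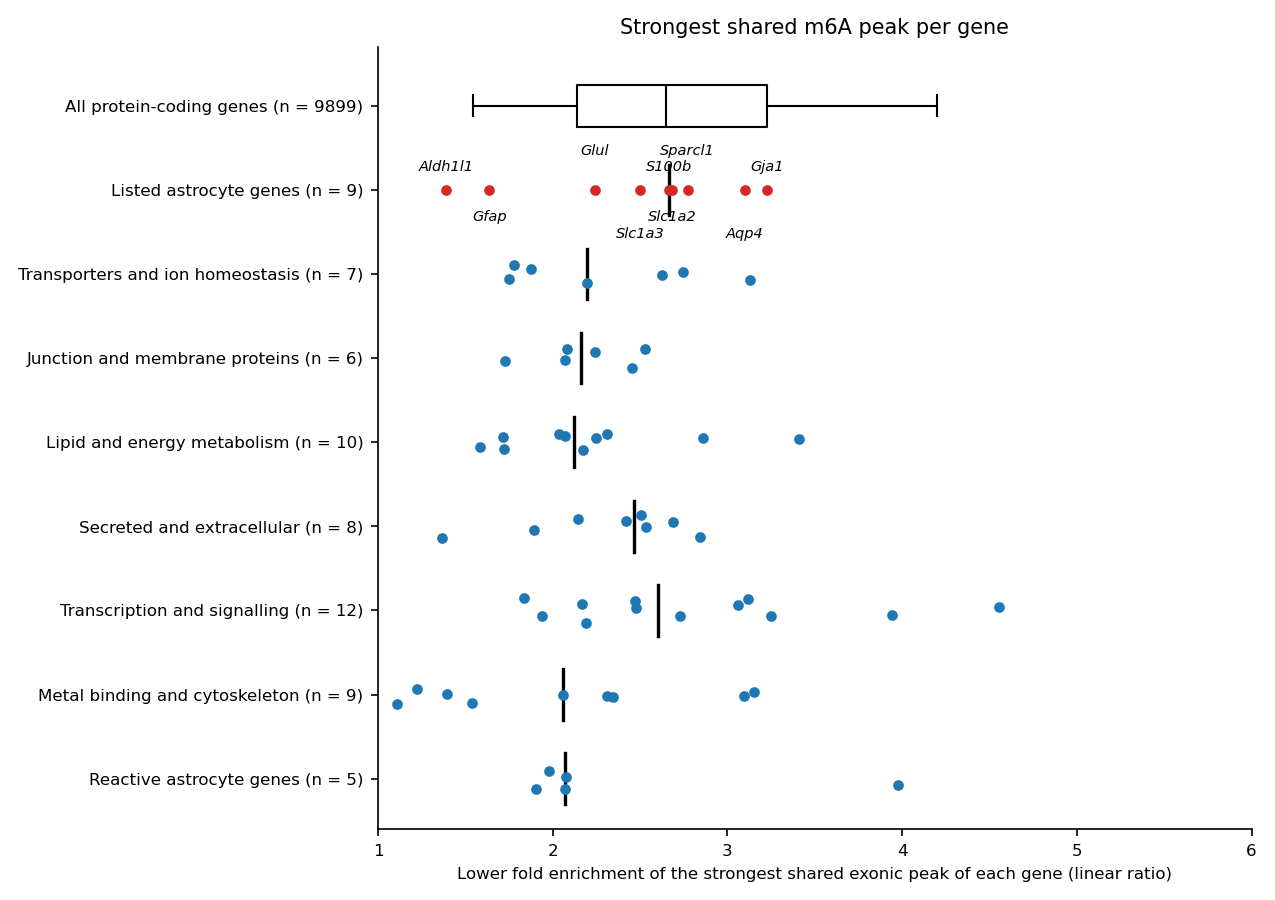
Lower fold enrichment of the strongest shared exonic peak of each gene, as a linear ratio. Red points are the listed astrocyte genes, blue points the other astrocyte genes by functional list, black lines the medians, and the box at the top gives the quartiles of all genes with 5th to 95th percentile whiskers. The listed astrocyte genes run from 1.39 for *Aldh1l1* to 3.23 for *Gja1*, around a median of 2.66 against 2.65 for all genes.

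While the median strongest peak of the 9 genes was close to that of all genes with a shared peak, the peaks taken singly were weaker. In replicate 1, 22 of the 31 peaks of the 10 genes were below the median of the whole list, and in replicate 2, 26 of 36 were. The median fold enrichment of their shared peaks was 2.12 in replicate 1 and 1.99 in replicate 2, while shared peaks of all genes had medians of 3.01 and 2.33. The peaks found in 1 replicate alone were lower still, at a median of 1.67 for replicate 1 and 1.48 for replicate 2. The 9 genes had a median of 3 shared intervals per gene and 24.4% of the mRNA covered, and all genes with a shared peak had medians of 2 intervals and 18.2%.

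By position, 5 of the 26 shared intervals were centred in the 5′ UTR, 15 in the coding sequence and 6 in the 3′ UTR. The comparison set was the 20638 shared intervals that were placed on the mRNAs of 9235 other genes. Among these, 10.2% were centred in the 5′ UTR, 61.8% in the coding sequence and 28.0% in the 3′ UTR. Start codons were covered in *Aqp4*, *Gja1*, *Slc1a3*, *Glul* and *S100b*, which is 55.6% of the 9 genes with a shared peak, against 22.5% of all genes with one. The stop codon was covered in the same 5 genes, against 51.6% of all genes. The start codon share, counted the same way, varied widely among the gene sets described below. It was 42.1% for the other astrocyte genes, and 16.7% to 77.8% by functional list. For markers of other brain cells it was 41.2%, from 14.3% for endothelial to 66.7% for neuron markers. In the study's own astrocytic list it was 17.3%. A high share was thus not limited to the 9 genes. The stop codon intervals had a median fold enrichment of 3.53 in replicate 1 and 2.34 in replicate 2, and the start codon intervals had medians of 2.43 and 2.50. Intervals confined to the 5′ UTR were found in *Slc1a2*, *Slc1a3*, *Glul* and *S100b*, and intervals in the 3′ UTR more than 400 nt from the stop codon in *Gfap*, *Slc1a2*, *Slc1a3* and *S100b*.

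Several peaks ran past the exon edge, as in *Aqp4*, where 159 of the 391 bases of the exon 1 interval were exonic, and in *S100b*, where 106 of 364 were. In 8 of the 26 intervals (30.8%), exonic bases were the minority, against 18.03% of the intervals of other genes. The shortest peak in each list was 200 bases long, so a short exon could not be covered by a peak of its own length. The positions above are therefore those of the exonic bases.

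Of the 26 shared intervals, 7 held a GGACT (26.9%), 17 a GGAC (65.4%) and 24 a DRACH (92.3%), the degenerate m6A context in which D stands for any base but C, R for a purine and H for any base but G. Only the strand of the gene was searched, and each GGACT is also a GGAC and a DRACH. The shares among other genes' intervals were 37.9%, 74.9% and 95.6%. The member intervals had 43 to 1115 exonic bases, and among other genes' intervals in this range 37.2% held a GGACT and 75.5% a GGAC. Among those in the middle of the range, from 146.5 to 342.75 exonic bases, 31.0% held a GGACT and 72.8% a GGAC. Seen from the mRNAs, the 9 genes had 1.37 GGACT per kb inside shared intervals and 0.972 outside them. All other genes with a shared interval had 1.61 inside and 0.982 outside.

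The wider astrocyte programme was read from 79 other genes in 7 functional lists. Of these, 57 (72.2%) had a shared exonic peak, against 46.0% of all protein-coding genes. By the lower value of the strongest shared peak, the median of these 57 genes was 2.20, below the 2.65 of all genes with a shared peak. The medians of the 7 lists ran from 2.06 to 2.60, and the genes named below are the strongest of each list. The metal-binding and cytoskeletal list had the lowest of these medians, and a shared peak reached a fold enrichment of 2 in each replicate in 5 of its 9 genes. That share was 37.2% over all protein-coding genes and 80.9% over those with a shared peak. All 9 genes of the list had a shared peak of any strength, led by *Tubb2b*, a tubulin, with 4.21 and 3.15, and *S100a16*, with 3.92 and 3.10. Of the 14 transcription and signalling genes, 12 had one, led by *Nfib*, a transcription factor of gliogenesis, with 5.31 and 4.55 beside its stop codon, and *Rfx4*, with 3.94 and 4.06 over the 5′ UTR. In the transport list, 7 of 9 genes had one, and the inward-rectifier potassium channel genes *Kcnj10*, with 4.36 and 3.13, and *Kcnj16*, with 3.76 and 2.74, were the strongest.

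Metabolic genes had a shared peak in 10 of 13 cases, with *Abca1*, the cholesterol exporter, at 3.41 and 6.13, and *Dio2*, which activates thyroid hormone, at 3.01 and 2.86. Secreted and extracellular genes had one in 8 of 12, with *Htra1*, a serine protease, at 4.94 and 2.85, and *Bcan*, the proteoglycan brevican, at 2.69 and 2.81. Junction and membrane genes had one in 6 of 10, with *Ntsr2*, a neurotensin receptor, at 4.13 and 2.53, and *Gpr37l1* at 3.04 and 2.45. Reactive astrocyte genes had one in 5 of 12, the lowest share of the 7 lists and close to the 46.0% of all protein-coding genes, with *Osmr*, the oncostatin M receptor, at 4.62 and 3.98, and *Serping1*, the C1 inhibitor, at 2.76 and 2.07.

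An exonic peak in at least 1 replicate was found for 67 of the 79 genes, against 57.3% of all protein-coding genes. The other 12 genes had no exonic peak in either replicate. These were the reactive genes *Lcn2*, *C3*, *Steap4*, *Cxcl10* and *Emp1*, the membrane genes *Cldn10* and *Cd9*, the metabolic genes *Pla2g7* and *Hsd11b1*, the secreted genes *Cst3* and *Chrdl1*, and *Hes5*, a Notch target. In the absence of expression values, an unmethylated mRNA and one too scarce for a peak cannot be told apart.

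**Figure D4:**
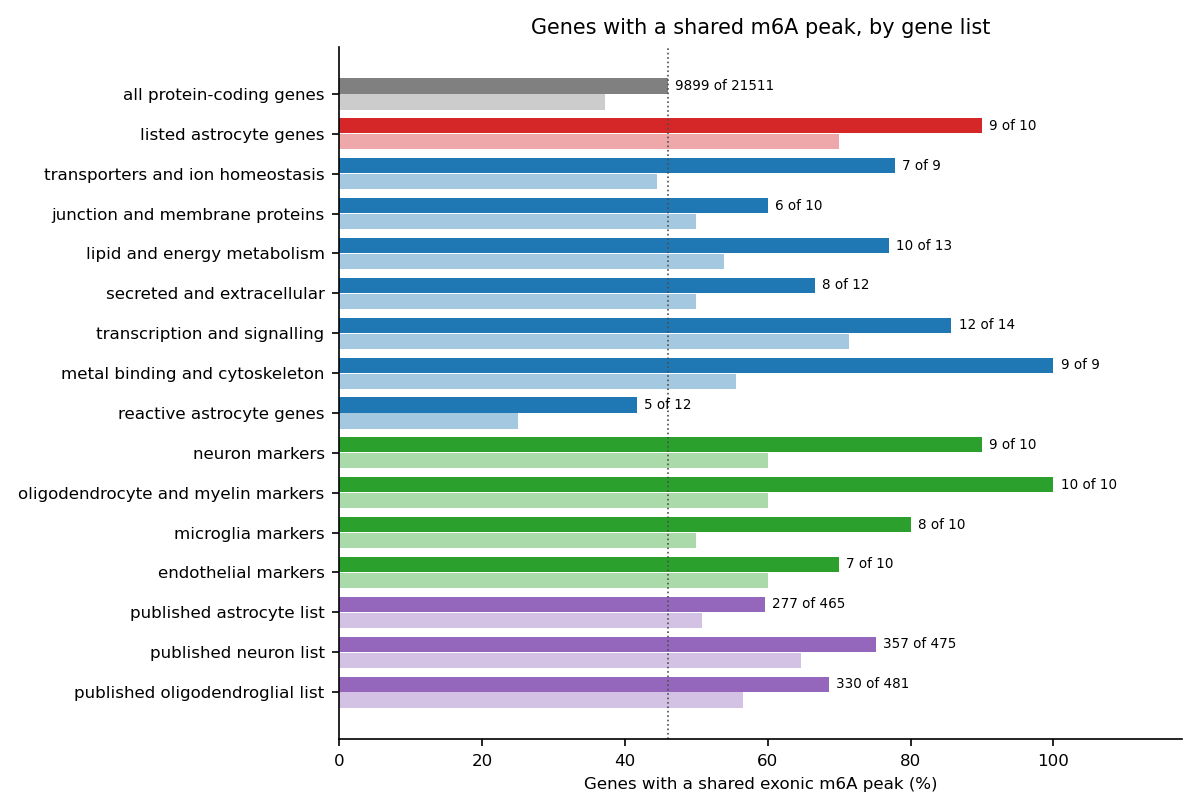
Share of genes with a shared exonic peak, in percent, by gene list. Dark bars count any shared peak and pale bars those that reached a fold enrichment of 2 in each replicate, numbers beside the bars give the genes with a shared peak of those matched, and the dotted line marks the 46.0% of all protein-coding genes. The listed astrocyte genes stand at 9 of 10 and the reactive astrocyte genes at 5 of 12.

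Marker genes of other brain cells also carried shared peaks. A shared peak was found in 9 of 10 neuron markers, 10 of 10 oligodendrocyte and myelin markers, 8 of 10 microglia markers and 7 of 10 endothelial markers. In the study's own cell type gene lists, *S100b* was among the oligodendroglial genes, *Glul* was in no list and the other 8 genes were among the astrocytic ones. A shared peak was found in 59.6% of the 465 astrocytic genes matched, 68.6% of 481 oligodendroglial genes and 75.2% of 475 neuronal genes. The fold-enrichment medians of the strongest shared peak in these lists were 2.78, 2.65 and 2.77.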

How the data were processed

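The authors trimmed reads with Cutadapt 1.10 and Trimmomatic 0.32, aligned them to mm10 with TopHat (2.1.0 in the methods, TopHat2 2.0.9 in the submitters' processing notes), kept uniquely mapped reads of mapping quality at least 20, and called peaks for each IP sample against its own input with MACS2 2.1.1 at a false discovery rate under 0.05, keeping duplicates. The deposited values are the fold enrichment of each peak, a linear ratio; depth is not in these files. Peaks were intersected with exons of all GENCODE M21 transcripts of a gene, and placed on its transcript with the longest coding sequence, by the middle base of the exonic part. Overlaps were computed with Python 3.11.15 and pandas 2.3.3, gave the same counts as bedtools 2.31.1, and were tested on simulated data. The 10 genes and all gene lists were chosen with earlier results of these data known. Of other astrocyte genes, the 2 with the highest lower fold enrichment in each list and those with no peak were named, and of marker lists only counts were given. Alternatives were a 50% overlap of both peaks, a fold enrichment of at least 2, the exons of 1 transcript, peaks merged within 100 bp, each replicate alone, other stop codon windows and other motifs. The 2 input samples were used only through the authors' ratios.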

Additional observations from a re-analysis of the deposited data

Results flagged for a closer look

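Peaks inside the introns of the 10 genes were outside the rule, which took exons. There were 3 of them, all in replicate 1 and none with an overlapping peak in replicate 2. The *Sparcl1* intronic peak (chr5:104104245-104104689) had a fold enrichment of 4.50, the *Aldh1l1* intronic peak (chr6:90552206-90552621) one of 4.40, and the *Slc1a3* intronic peak (chr15:8669366-8670088) one of 3.56. They lay 1828, 1236 and 10433 bases from the nearest exon of the gene. The *Aldh1l1* value was above both exonic replicate 1 values of that gene, 1.88 and 1.42. Like all other peaks, they were called against the input, and their origin was not tested.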

How the results depend on the processing

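The count of genes with a shared exonic peak was 9 with a 50% overlap, with 1 transcript per gene and with merged peaks, 7 at a fold enrichment of at least 2, which leaves out *Gfap* and *Aldh1l1*, and 9 to 10 in single replicates. The 26 shared intervals became 11 at a fold enrichment of at least 2 and 23 with a 50% overlap, and single replicates had 31 to 36 peaks. The median of the strongest peak, 2.66, was 2.67 to 3.18 in single replicates, the higher value being that of replicate 1 alone. The count of intervals within 200 nt of the stop codon, 6, was 4 within 100 nt, 8 within 400 nt and 7 by any base. The 7 intervals with GGACT became 17 with GGAC and 24 with DRACH, which are looser motifs. No paired analysis was possible because the input samples have no table of their own here and each enrichment is already an IP over its own input. The unknown depth, the library kit that does not mark the strand and the 2 replicates limit every value.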
